A study of Mus musculus with 6 samples.

Results

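The extreme-signal sites were the accessible sites on chromosomes 1 to 19 whose ATAC-seq signal, averaged over the 6 libraries of the series, was at least 65. This rule found 281 sites among 534067 sites on those chromosomes and 578591 sites in all. The signal of a site is its number of reads divided by the reads in all sites and by a normalization factor of the library. The height of these sites is therefore a description and not a finding. The members nearest to the threshold on the inside were chr10:129172441-129172691 with a mean signal of 65.11 and chr10:94334704-94334936 with 65.27. The nearest sites on the outside were chr14:119686085-119686321 with 64.59 and chr13:23775327-23776544 with 64.45. Positions are given in the mm9 build of the mouse genome.

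ATAC-seq uses a transposase that cuts accessible DNA and leaves sequencing adapters at the cuts, so that open chromatin collects reads. Mouse chromosomes carry satellite DNA beside their centromeres, in long arrays of a short unit, and many further sequences are present in several near-identical copies. A genome assembly holds only some of these copies, so reads from all copies in the nucleus can pile up on the few that were assembled. Such pile-ups are a known feature of ATAC-seq data and can take up much of a library.

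The libraries came from bone marrow-derived macrophages (BMDMs) of wild-type C57BL/6 mice (C57BL/6J in the growth protocol), 1 library per group and without replicates. The study asked how interleukin-4 (IL-4), a cytokine of tissue repair, and cytoskeletal remodeling act on macrophage chromatin. One pair of groups, Untreated and DMSO, received no IL-4. The other groups received IL-4 at 20 ng/ml for 24 hours, alone (IL-4), with DMSO (DMSO + IL-4), with latrunculin A (LatA + IL-4) or with MCSF (MCSF + IL-4). Latrunculin A, an inhibitor of actin polymerization, was used at 1 µM with DMSO as its vehicle, and MCSF (also called CSF1), the growth factor of macrophages, at 100 ng/ml. In a bulk library, fewer cells with an open site and less opening per cell cannot be told apart. Macrophage marker loci were not checked, since no mm9 gene annotation was used here. For the same reason the label of satellite and repeat copies was not checked against sequence, and the sites are named by their rule.

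Each library held from 12387332 to 19889902 reads in sites. Reads that aligned to several places were reported at up to 10 of them. Whether such a read was then counted at every place is not given in the sources used here, so the members may share reads and are not treated as independent of each other. All 281 members passed a filter of a mean of 20 normalized reads, and the lowest read count of any member in any library was 490. Counting error is therefore small for every member, while the spread between replicate cultures is unknown. In what follows, a pair of values without IL-4 gives Untreated and then DMSO, and a pair with IL-4 gives the IL-4 library and then DMSO + IL-4. Values with latrunculin A or MCSF are those of the libraries that also received IL-4.

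The extreme-signal sites held a large part of the reads in sites, and a smaller one in the libraries with latrunculin A or MCSF. Their share of reads in sites was 33.5% and 34.1% without IL-4, 31.0% and 30.3% with IL-4, 22.2% with latrunculin A and 24.3% with MCSF. Both treated libraries were thus below the other 4. The widest exact interval (Clopper-Pearson, 95%) of these shares spanned 0.0512 percentage points and covers counting error only. The difference of LatA + IL-4 from DMSO + IL-4 was -8.14 percentage points, and that of MCSF + IL-4 from IL-4 was -6.72. The differences with IL-4 were smaller, at -2.42 for IL-4 against Untreated and -3.85 for DMSO + IL-4 against DMSO.

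A few sites carried a large part of this share. The single highest member, chr2:98506351-98507543, held 6.36% and 6.33% of reads in sites without IL-4, 5.67% and 5.40% with IL-4, 3.47% with latrunculin A and 3.95% with MCSF. The 10 highest members together held 17.2% and 17.2% without IL-4, 15.7% and 14.9% with IL-4, 10.1% with latrunculin A and 11.5% with MCSF. The remaining 271 members held from 12.1% to 16.9%, which was more than the 10 highest in the libraries of DMSO + IL-4, latrunculin A and MCSF. The 390 sites of the next class, with a mean signal from 30 to below 65, held 1.31% and 1.48% without IL-4, 1.43% and 1.52% with IL-4, 1.99% with latrunculin A and 1.89% with MCSF. The share of this class thus differed in the opposite direction from that of the extreme-signal sites. Shares of 1 total are tied, so a lower share of the members raises that of all other sites together. Scaled on reads outside the members, median log2 ratios in this class were 0.25 with latrunculin A and 0.27 with MCSF. For IL-4 they were 0.12 against Untreated and -0.068 in the presence of DMSO.

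**Figure D1:**
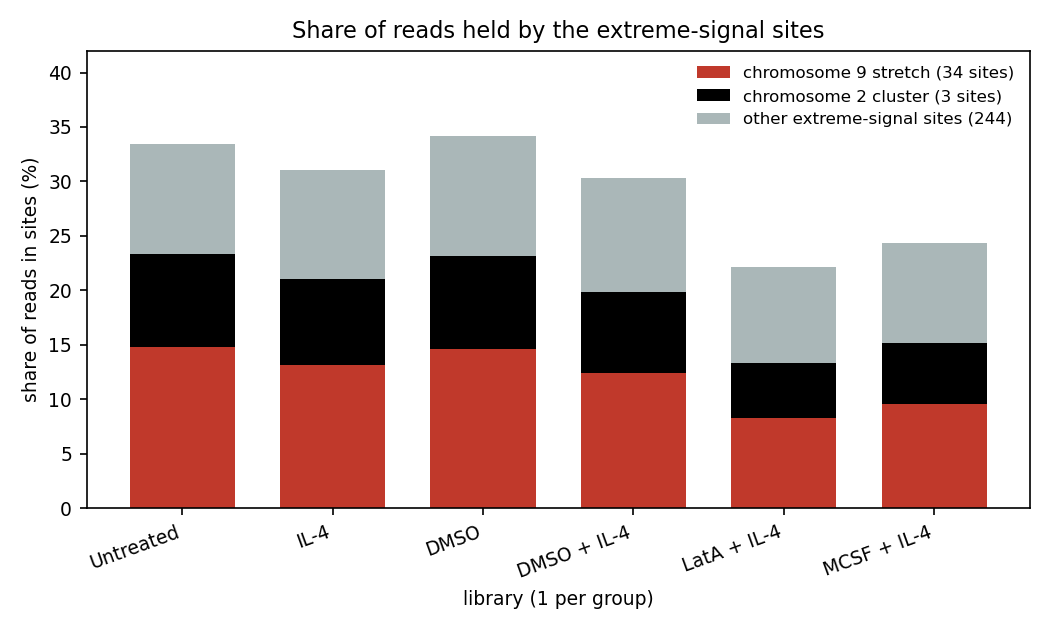
Stacked bars of the share of reads in sites (%, y axis) for each library (x axis), split into the 34 sites of the chromosome 9 stretch, the 3 sites of the chromosome 2 cluster and the other 244 extreme-signal sites. The bars with latrunculin A (22.2%) and MCSF (24.3%) are the lowest, and most of the difference lies in the chromosome 9 and chromosome 2 parts.

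By position, the largest block lay at the start of chromosome 9. There, 34 members filled 38.3 kb, from 2999995, where the first site of the chromosome starts, to 3038294. Below 3.1 Mb the chromosome held 89 sites, and the 55 that were not members all lay past this stretch, with a highest mean signal of 2.06. The change from extreme to ordinary signal was thus abrupt. The 34 members held 14.8% and 14.6% of reads in sites without IL-4, 13.2% and 12.4% with IL-4, 8.31% with latrunculin A and 9.52% with MCSF. Neighbouring starts were from 253 to 4259 bp apart with a median of 885 bp.

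Within the chromosome 9 stretch the height varied widely and the profile over the libraries did not. In Untreated the lowest member had a signal of 351, the median member 2984 and the highest 24847. In LatA + IL-4 these values were 183, 1854 and 14542. The highest was the first site of the stretch, chr9:2999995-3001601, with a mean signal of 21235 over 1607 bp. Despite this range of height, the profiles of all 34 members lay within 0.20 of each other on the log2 scale in every library, after each site's own mean was taken off. The log2 ratio of normalized reads in LatA + IL-4 to DMSO + IL-4 was negative in 34 of 34 members, from -0.68 to -0.45, and that of MCSF + IL-4 to IL-4 in 34 of 34, from -0.53 to -0.30. IL-4 against Untreated gave -0.21 to -0.08 and DMSO + IL-4 against DMSO -0.41 to -0.25.

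The chromosome 2 cluster consisted of 3 members in 5.23 kb. The highest, chr2:98506351-98507543, had a signal of 60624 and 65754 without IL-4, 55188 and 53611 with IL-4, 35330 with latrunculin A and 40362 with MCSF. It also had the highest signal per kb of all members. Its log2 ratio was -0.60 with latrunculin A and -0.45 with MCSF, and the profile was that of the chromosome 9 stretch. The same held for chr2:98502317-98503196, with a mean signal of 12906 and log2 ratios of -0.54 and -0.36. The member between them, chr2:98505009-98505440, had a mean signal of 6843 and a different profile. Its signal was 6674 and 7255 without IL-4, 7335 and 7383 with IL-4, 5872 with latrunculin A and 6538 with MCSF. It differed least of the 3, with log2 ratios of -0.33 and -0.17. Together the 3 sites held 8.55% and 8.52% of reads without IL-4, 7.85% and 7.52% with IL-4, 4.97% with latrunculin A and 5.64% with MCSF.

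Members were found on all 19 chromosomes. Chromosome 2 held 48 members in all, chromosome 9 held 44, chromosome 4 held 26, and chromosomes 6 and 13 held 21 each. Chromosome 15 held 1 and chromosome 19 held 3. Of all members, 128 had no other member within 100 kb and 127 lay in 15 runs of at least 3 with gaps of at most 100 kb. Within 200 kb of the first site of a chromosome lay 46 members, of which 12 were outside chromosome 9. The 244 members outside the chromosome 9 stretch and the chromosome 2 cluster held 10.1% and 11% of reads without IL-4, 10.0% and 10.4% with IL-4, 8.87% with latrunculin A and 9.16% with MCSF.

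Members were on the whole wider than other sites. Their median width was 634 bp and their range 150 to 5787 bp, against a median of 271 bp for all sites on chromosomes 1 to 19 and 943.5 bp for the next class. Widths of at most 180 bp were found in 21 members, of 181 to 400 bp in 89, of 401 to 799 bp in 46, of 800 to 1200 bp in 96 and above 1200 bp in 29. Sites of at most 180 bp made up 7.47% of the members and 23.4% of all sites on those chromosomes. A wider site collects more reads at the same height, so signal per kb was computed as well. Its median was 293 per kb over the members, 45.4 per kb over the next class and 2.55 per kb over all sites on chromosomes 1 to 19.

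Outside the chromosome 9 stretch, the narrowest members were 17 sites of 157 to 173 bp on 12 chromosomes. None of the 17 had another member within 100 kb. Their mean signal ranged from 86.4 to 6679. The highest was chr10:121200255-121200421, 167 bp wide, with a signal of 5538 and 6972 without IL-4, 6288 and 6885 with IL-4, 6902 with latrunculin A and 7489 with MCSF. Its latrunculin A value was level with its vehicle control, unlike the chromosome 9 stretch. Over the 17 members the log2 ratio ran from -0.44 to 0.02 with latrunculin A and from -0.09 to 0.28 with MCSF. None of them passed 1.5-fold. For latrunculin A, 30.1% of all sites past the filter were at least 1.5-fold higher, while 15.7% were lower by this limit. For MCSF these background shares were 29.2% and 14.9%. The 17 members held 2.95% and 3.15% of reads with IL-4, 2.97% with latrunculin A and 3.23% with MCSF.

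**Figure D2:**
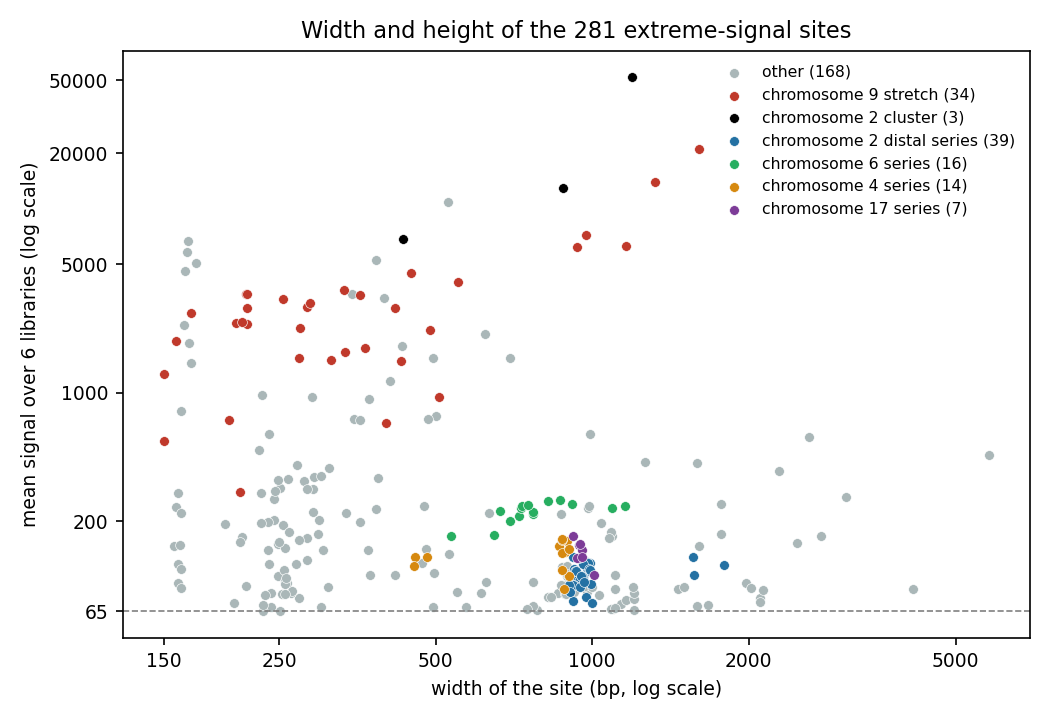
Mean signal over the 6 libraries (y axis, log scale) against site width in bp (x axis, log scale) for each of the 281 extreme-signal sites, coloured by place, with the threshold of 65 as a dashed line. A column of sites near 160 bp, a cloud near 250 bp and a dense group between 800 and 1200 bp stand apart, and the 4 highest points are sites of the chromosome 2 cluster and the chromosome 9 stretch.

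Several groups of members formed series with recurring distances between neighbours. On chromosome 6, 16 members between 47604767 and 47722550 formed 2 blocks of 8, and 10 of the 15 start-to-start steps measured from 4253 to 4376 bp with a median of 4321.5 bp. On chromosome 4, 14 members between 88405910 and 88452206 had 10 of 13 steps from 2904 to 2965 bp with a median of 2920 bp. On chromosome 17, 7 members between 17087910 and 17431699 had all 6 steps from 53557 to 59558 bp. On distal chromosome 2, 39 members of 904 to 1793 bp lay between 174966402 and 177813606, with 8 of 38 steps from 34309 to 34370 bp and 7 from 62976 to 63829 bp, while the other 23 steps fell in neither range. The series were picked out after their positions were seen, so the counts are descriptive.

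**Figure D3:**
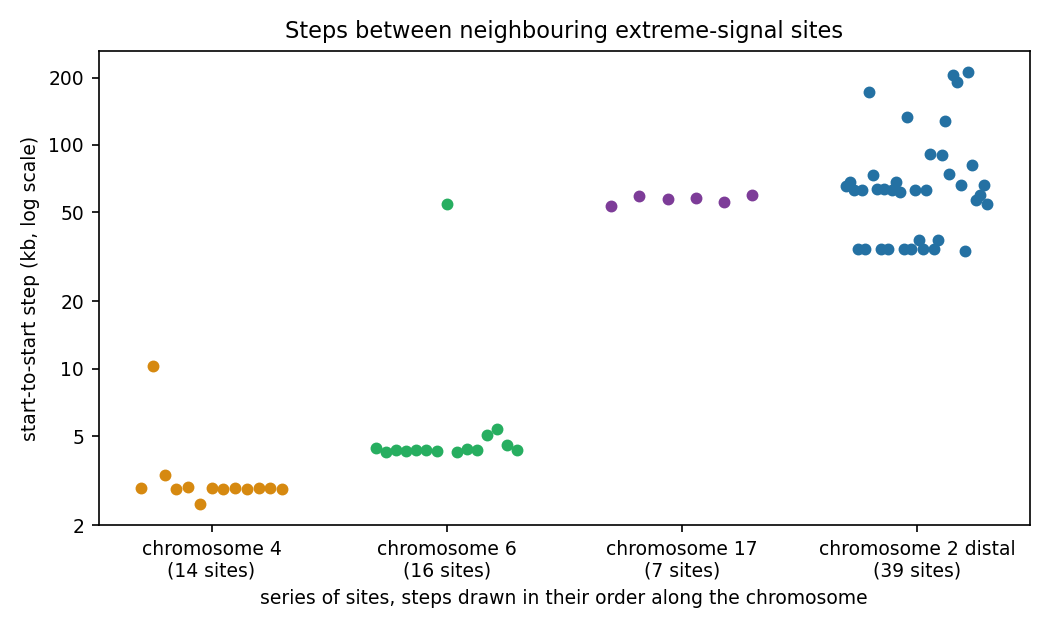
Distance between the starts of neighbouring members (kb, y axis, log scale) in the series on chromosomes 4, 6 and 17 and on distal chromosome 2, with each point a step and the steps in their order along the chromosome. The chromosome 4 steps gather near 2.9 kb and the chromosome 6 steps near 4.3 kb, while distal chromosome 2 shows 2 recurring steps.

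The chromosome 6 series had the largest ratios of these 4 series with latrunculin A and MCSF. Over its 16 members the median signal was 198 and 254 without IL-4, 154 and 176 with IL-4, 372 with latrunculin A and 268 with MCSF. All 16 were at least 1.5-fold higher with latrunculin A, with log2 ratios from 1.05 to 1.19, where 30.1% of all sites past the filter were. All 16 were also higher with MCSF, from 0.70 to 0.84, where 29.2% of all sites were. Scaled on reads outside the members, 7 of these 16 MCSF calls were left, where 19.3% of all sites were higher. IL-4 against Untreated gave log2 ratios from -0.55 to -0.34, and DMSO + IL-4 against DMSO gave -0.73 to -0.50, where 5 of 16 were at least 1.5-fold lower, as were 12.8% of all sites. At the highest member, chr6:47702602-47703470, reads with latrunculin A were 2.17-fold those in DMSO + IL-4, with an exact interval of 2.07 to 2.28 that covers counting error only.

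The chromosome 4 series had smaller ratios. Its median signal was 107 and 134 without IL-4, 111 and 123 with IL-4, 162 with latrunculin A and 174 with MCSF. Its log2 ratios ran from 0.36 to 0.49 with latrunculin A, where no member reached 1.5-fold, and from 0.53 to 0.70 with MCSF, where 11 of 14 did, as did 29.2% of all sites. Scaled on reads outside the members, none of these 11 calls was left. The distal chromosome 2 series had log2 ratios from 0.04 to 0.33 with latrunculin A and from 0.12 to 0.46 with MCSF. Its lowest median signal was 77.8 in Untreated and its highest 123 in LatA + IL-4, and no member passed 1.5-fold in any of the 6 comparisons. Over all sites the shares in 1 direction ran from 7.24% (lower, DMSO against Untreated) to 30.1% (higher with latrunculin A). The chromosome 17 series ran from 0.37 to 0.54 with latrunculin A and from 0.19 to 0.31 with MCSF, also without a member past 1.5-fold. Near 22 Mb of chromosome 13, 3 members of 1199 to 1206 bp were higher with MCSF, with log2 ratios from 0.95 to 0.98, while latrunculin A gave 0.21 to 0.32.

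Members were then grouped by the shape of their profile over the 6 libraries. For each member, log2 normalized reads were centred on the site's own mean, and sites within 0.2 of each other in every library formed a group of at least 3. This gave 27 groups with 236 members, and 45 members were in no group. Of the groups, 22 drew their 160 members from more than 1 chromosome and 5 lay on a single chromosome. Groups were made from the values they describe, so no test applies to them.

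The largest group joined 32 members of the chromosome 9 stretch with 2 of the chromosome 2 cluster. Its centred log2 values were 0.25 and 0.36 without IL-4, 0.11 and 0.06 with IL-4, -0.49 with latrunculin A and -0.29 with MCSF. The other 2 members of the stretch fell into a group of 8 with a like but steeper profile, from 0.46 in DMSO to -0.62 in LatA + IL-4. That group also held chr9:35112727-35113253, which lay far from the stretch on the same chromosome. This site had a signal of 13367 and 14400 without IL-4, 11812 and 11222 with IL-4, 6859 with latrunculin A and 8054 with MCSF. The remaining 5 sites of the group were on chromosomes 4, 12 and 13, and 2 of them, chr4:3016600-3018370 and chr12:3109804-3110187, lay 16.3 and 107 kb from the first sites of their chromosomes.

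Lower ratios were seen in groups spread over many chromosomes. A group of 11 members on 7 chromosomes, 197 to 501 bp wide, had median log2 ratios of -1.01 with latrunculin A and -0.89 with MCSF. Its highest member was chr5:85047284-85047628, with a signal of 3904 and 4773 without IL-4, 3724 and 4184 with IL-4, 2022 with latrunculin A and 1999 with MCSF. Further groups of 6, 5 and 4 members had medians from -0.85 to -1.19 with latrunculin A and from -0.87 to -0.96 with MCSF. In contrast, 10 members on 10 chromosomes, with a median width of 166.5 bp, had medians of -0.05 and 0.18. These hold the tallest of the narrow sites.

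**Figure D4:**
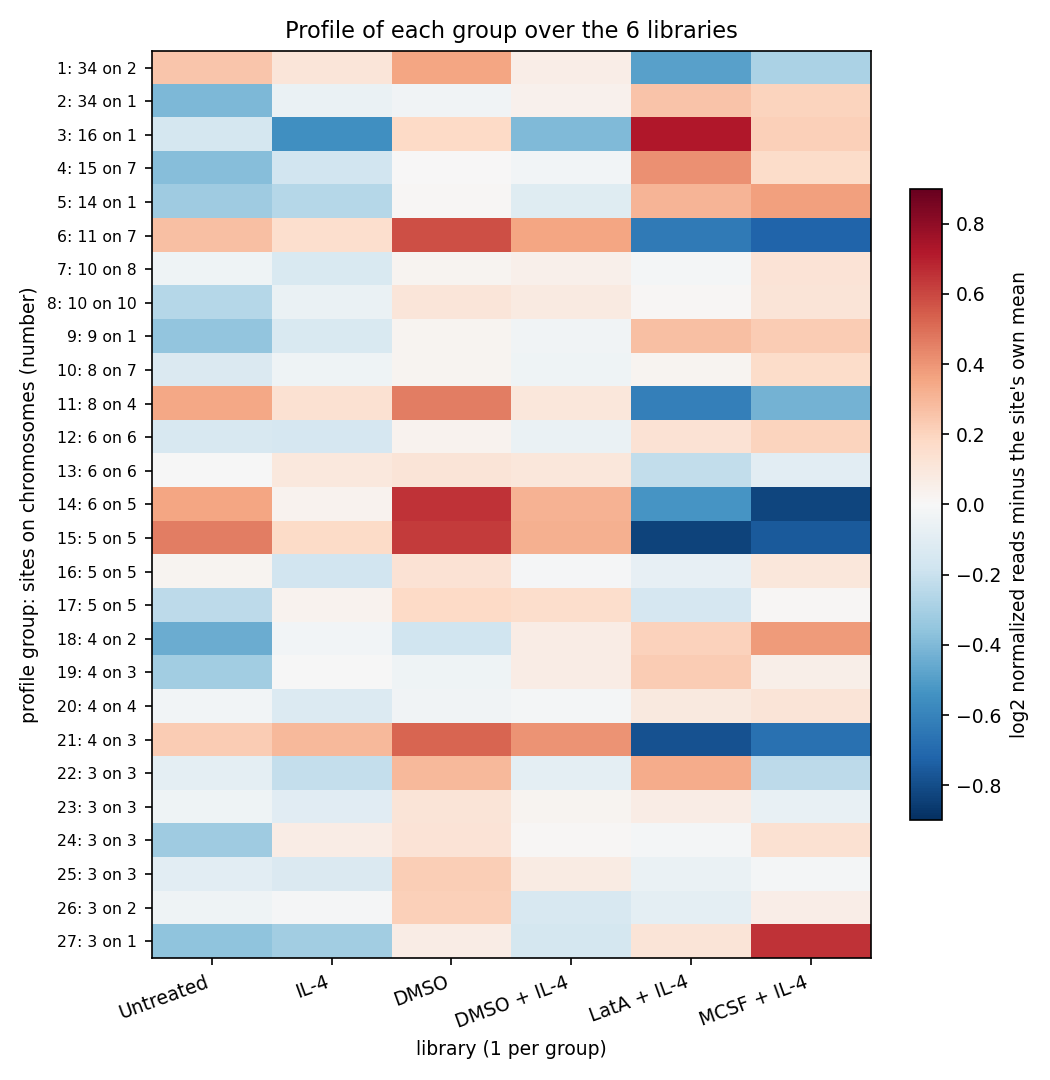
Heatmap of the 27 profile groups (rows, labelled with the number of sites and of chromosomes) over the 6 libraries (columns), coloured by log2 normalized reads minus the site's own mean. Groups 1, 6, 11, 14, 15 and 21 are the lowest in LatA + IL-4 and MCSF + IL-4, and groups 2, 3, 4, 5, 9 and 18 are among those that are high in both.

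Some members could hardly be told apart by their reads. Of 39340 pairs of members, 242 (0.615%) had normalized reads within 1.1-fold of each other in all 6 libraries. These pairs took in 133 members, with 197 pairs on 1 chromosome and 45 across chromosomes. The distal chromosome 2 series gave 105 of them, and 23 joined 16 members of that series with 7 of the 9 members at 61905234 to 62887566 of chromosome 13. A pair at the starts of chromosomes 11 and 17, chr11:3023501-3024480 and chr17:3083616-3084600, were 980 and 985 bp wide and differed in log2 reads by at most 0.05. This limit of 1.1-fold was set after the values were seen, and how many reads the paired sites share was not tested.

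The peak lists of the single libraries, called on the same reads, described the same sites by their fold enrichment over the local background. A peak was found over 279 members in all 6 libraries. The exceptions were the 2 members of 150 bp in the chromosome 9 stretch, chr9:3019259-3019408, which had a peak only in LatA + IL-4, and chr9:3033752-3033901, which had none in LatA + IL-4 and MCSF + IL-4. Median fold enrichment over the members was from 24.7 in MCSF + IL-4 to 28.2 in DMSO, against 3.73 to 4.77 over all peaks. The value did not follow height. The background is local, so reads of close neighbours enter it. Values in a dense block and at lone sites are therefore not a like comparison. In the chromosome 9 stretch the median was only 2.57 to 2.66, and at the highest member of all it was 10.1 to 11.4. The 17 narrow members outside the stretch had medians from 63.8 to 64.4. A set of 52 members was above 60-fold in all 6 libraries. All 52 were 158 to 311 bp wide and none had another member within 100 kb, while their mean signal ran from 65.3 to 6679. No member exceeded 66.6-fold in any library, and the highest value over the members was 66.5 to 66.6 in each. A site whose reads lie close together with few around it reaches a high value by the measure itself. The width and lone position of the 52 are thus a description.

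Latrunculin A and MCSF were then compared with their controls at every member. A site was called higher or lower past 1.5-fold in normalized reads with 1 read added. With latrunculin A, against DMSO + IL-4, 25 members were higher and 50 lower, where 30.1% of the 132057 sites past the filter were higher and 15.7% lower. With MCSF, against IL-4, 40 were higher and 36 lower, where 29.2% of all sites were higher and 14.9% lower. On this scale higher calls were thus rarer among the members than in the background in both comparisons, and lower calls were near it. Most background sites had far fewer reads than the members, and counting error alone takes more of such sites past 1.5-fold. Between DMSO + IL-4 and IL-4, 11.2% of all sites were higher and 9.8% lower. The 390 sites of the next class, closer to the members in reads, gave 10 and 4 there. How much of such gaps comes from read depth was not tested in any comparison with all sites. With the 2 controls exchanged, which was tried after the values were seen, latrunculin A gave 40 higher and 57 lower members against IL-4, where 34.4% of all sites were higher and 16% lower. MCSF gave 24 higher and 36 lower against DMSO + IL-4, where 24.9% were higher and 15% lower, so the split for MCSF turned with the control. The median log2 ratio was 0.06 over the members and 0.20 over all sites with latrunculin A, and 0.19 and 0.16 with MCSF. In the next class of 390 sites, latrunculin A gave 124 higher and 19 lower sites, while MCSF gave 148 and 11.

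These splits depend on the scale and the threshold. At 2-fold, latrunculin A gave 20 higher and 17 lower members, where 11.5% of all sites were higher and 5.77% lower, so the order of its split turned. MCSF gave 5 and 4 at 2-fold, where 11.8% were higher and 5.08% lower. On total reads MCSF gave 32 higher and 42 lower, where 25.7% were higher and 17.5% lower. When libraries were scaled on the reads outside the members, 20 were higher and 86 lower with latrunculin A, where 20% of all sites were higher and 23.2% lower. With MCSF, 18 were higher and 69 lower, where 19.3% were higher and 23.4% lower. This scale moved the log2 ratio of every site by -0.19 with latrunculin A and by -0.21 with MCSF. On it all 34 members of the chromosome 9 stretch were lower with latrunculin A and 23 with MCSF, against 7 and 0 on the deposited scale. The chromosome 6 series kept its 16 higher calls with latrunculin A and 7 of 16 with MCSF, and none of the 14 members of the chromosome 4 series was higher with MCSF. The ratios below are on the deposited scale.

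The members that were lower formed a set shared by both treatments. Lower with both were 33 members, 11.7% of the 281, where 4.36% of all sites were lower with both. The 33 are 66% of the 50 lower with latrunculin A and 91.7% of the 36 lower with MCSF. Over all sites these shares were 27.9% and 29.2%. Scaled on reads outside the members, 66 members were lower with both, where 9.35% of all sites were. The comparisons share no library. These 33 members lay on 16 chromosomes, 21 of them without another member within 100 kb, and 26 of them were 181 to 400 bp wide. They held 2.61% and 2.83% of reads without IL-4, 2.36% and 2.50% with IL-4, 1.24% with latrunculin A and 1.27% with MCSF. The 26 of 181 to 400 bp came from 71 members of that width outside the chromosome 9 stretch, and the other 45 had log2 ratios from -0.58 to 0.30 with latrunculin A and from -0.23 to 0.43 with MCSF. Members of like width thus included sites at least 1.5-fold lower with both treatments and sites that were not.

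The lowest ratios lay among these sites. At chr4:79650367-79650598 the signal was 1039 and 1244 without IL-4, 1191 and 1254 with IL-4, 498 with latrunculin A and 582 with MCSF. The log2 ratio with latrunculin A was -1.33, the lowest of all members, and reads in DMSO + IL-4 were 2.52-fold those in LatA + IL-4 (exact interval 2.45 to 2.59, counting error only). At chr3:6050005-6050255 the signal was 364 and 457 without IL-4, 327 and 360 with IL-4, 156 with latrunculin A and 155 with MCSF. Its log2 ratio with MCSF, -1.08, was the lowest of all members. Of the 17 members lower with latrunculin A and not with MCSF, 8 belonged to the chromosome 9 stretch and the chromosome 2 cluster, whose latrunculin A ratios straddled 1.5-fold on the deposited scale.

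Higher with both were 22 members, 7.83% of the 281, where 15.4% of all sites were higher with both. The 22 are 88% of the 25 higher with latrunculin A and 55% of the 40 higher with MCSF, and over all sites these shares were 51.2% and 53%, so the share for MCSF was near the background. Scaled on reads outside the members, 10 were higher with both, where 7.43% of all sites were. The chromosome 6 series supplied 16 of these 22, so 6 were left outside it. Likewise, 30 of the 40 higher with MCSF came from the series of chromosomes 6 and 4 and the 3 sites near 22 Mb of chromosome 13. All 25 members higher with latrunculin A and all 40 higher with MCSF were over 400 bp wide and outside the chromosome 9 stretch and the chromosome 2 cluster. No member was higher with one treatment and lower with the other. The share of such opposite calls over all sites was not computed, so this is a description only.

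The highest ratios were at single sites whose mean signal passed 65 only through the libraries with latrunculin A and MCSF. The rule used these values, so the high ratios are a description. Of all members, 45 were under 65 in at least 1 library, and these included 6 of the 25 higher with latrunculin A and 12 of the 40 higher with MCSF. At chr8:125332411-125334080 the signal was 28.1 and 54.2 without IL-4, 46.7 and 46.7 with IL-4, 127 with latrunculin A and 121 with MCSF. Its log2 ratios were 1.44 with latrunculin A, the highest of all members, and 1.37 with MCSF. At chr4:141549610-141550470 the signal was 48.4 and 49.1 without IL-4, 47.0 and 59.1 with IL-4, 136 with latrunculin A and 150 with MCSF. Its log2 ratio with MCSF was 1.67, the highest of all members, a 3.18-fold difference with an exact interval of 2.92 to 3.47 that covers counting error only.

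**Figure D5:**
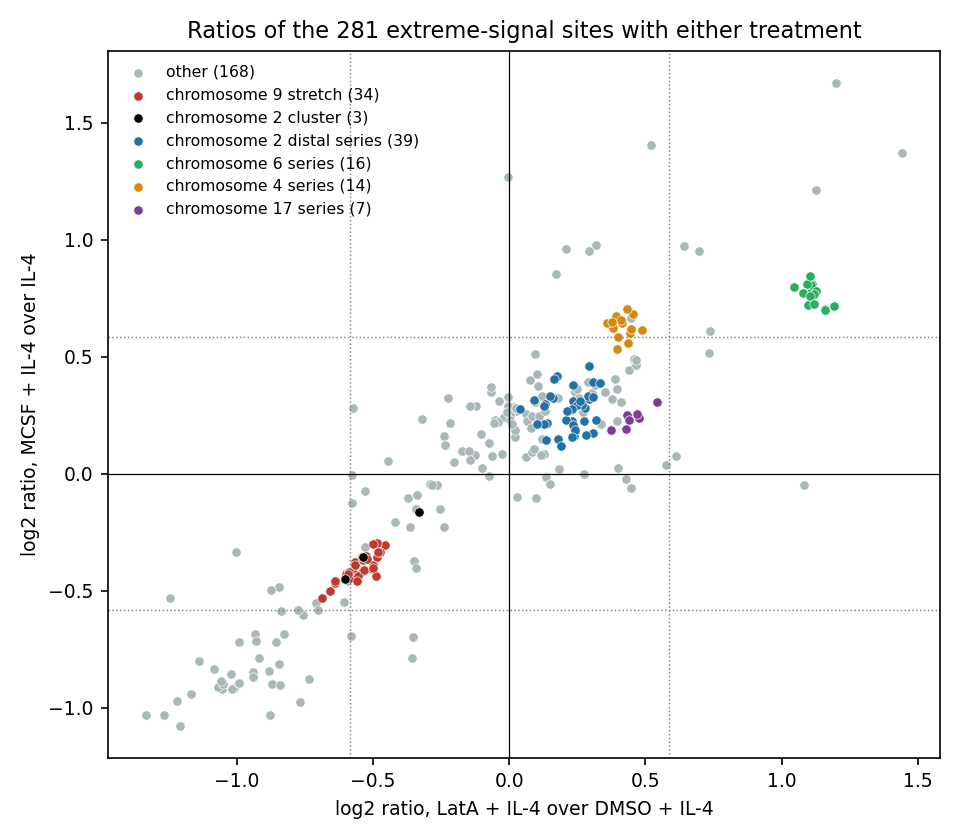
Log2 ratio of MCSF + IL-4 to IL-4 (y axis) against that of LatA + IL-4 to DMSO + IL-4 (x axis) for each of the 281 extreme-signal sites, coloured by place, with dotted lines at 1.5-fold. Sites of 1 place gather closely, the chromosome 6 series at the upper right and the chromosome 9 stretch at the lower left, and the corners of opposite calls are empty.

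Few members differed by 1.5-fold between libraries with and without IL-4. Against Untreated, 9 were higher and 2 lower, where 20.8% of all sites were higher and 8.88% lower. In the presence of DMSO, 4 were higher and 7 lower, where 16.6% of all sites were higher and 12.8% lower. The next class of 390 sites, closer to the members in reads, gave 57 higher and 14 lower for IL-4 against Untreated. In the presence of DMSO that class gave 33 and 20. Higher in both pairs were 4 members, 1.42% of the 281, where 8.73% of all sites were higher in both. The 4 are 44.4% of the 9 and 100% of the 4, and over all sites these shares were 41.9% and 52.5%. Lower in both were 2 members, 0.712% of the 281, where 2.38% of all sites were. The 2 are 100% of the 2 and 28.6% of the 7, against 26.8% and 18.6% over all sites. The other 5 of the 7 belonged to the chromosome 6 series. Median log2 ratios over the members were 0.02 and -0.11. The split of these few calls moved with the scale. For IL-4 against Untreated it was 8 higher and 4 lower on total reads, where 19.6% of all sites were higher and 9.95% lower, and 8 and 5 with DESeq2 size factors, where 19.5% were higher and 10% lower. It was 8 and 6 on reads outside the members, where 17.6% of all sites were higher and 11.8% lower. For the DMSO pair it was 5 and 4 on total reads, where 18.9% were higher and 10.6% lower, and 4 and 8 on reads outside the members, where 15.9% were higher and 13.4% lower. At 2-fold, 2 members were higher and 0 lower for IL-4 against Untreated, where 9.32% of all sites were higher and 2.39% lower. The DMSO pair gave 2 and 0 at this limit, where 7.21% were higher and 3.73% lower.

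The members lower with IL-4 in both pairs were wide sites with no profile group. The widest member of all, chr17:39979963-39985749, covered 5787 bp, and what the genome holds there was not checked. Its signal was 589 and 574 without IL-4, 350 and 376 with IL-4, 405 with latrunculin A and 454 with MCSF, so that both libraries without IL-4 were above the 4 with it. Its log2 ratios with IL-4 were -0.75 and -0.61. The same order held at chr6:3150716-3151747, with a signal of 105 and 103 without IL-4, 59.1 and 59.6 with IL-4, 63.6 with latrunculin A and 84.3 with MCSF. Its log2 ratios of -0.83 and -0.79 were the lowest of all members in either pair.

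The highest ratios with IL-4 were at single sites too. At chr14:106562719-106563718 the signal was 40.7 and 60.4 without IL-4, 82.9 and 103 with IL-4, 137 with latrunculin A and 102 with MCSF, with log2 ratios for IL-4 of 1.02 and 0.77. At chr12:60135920-60140055, 4136 bp wide, it was 52.3 and 41.4 without IL-4, 83.5 and 88.8 with IL-4, 100.0 with latrunculin A and 151 with MCSF, with log2 ratios for IL-4 of 0.67 and 1.10. Both sites were under 65 in the libraries without IL-4 and passed the rule through the libraries with it, so the direction of these ratios follows from how members were chosen.

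Few members passed the threshold in the vehicle comparisons. The next class of 390 sites, closer to the members in reads, gave 40 higher and 0 lower for DMSO against Untreated. For DMSO + IL-4 against IL-4 that class gave 10 and 4. DMSO against Untreated gave 3 higher and 0 lower members, where 16.8% of all sites were higher and 7.24% lower, with a median log2 ratio of 0.30 over the members and 0.18 over all sites. On total reads this comparison moved by -0.12 at every site, and on reads outside the members by -0.11, which left 2 higher and 0 lower where 11.2% of all sites were higher and 10.3% lower. DMSO + IL-4 against IL-4 gave 1 higher and 0 lower, where 11.2% were higher and 9.8% lower, with medians of 0.10 and 0.06, and the same 1 and 0 on reads outside the members, where 9.77% were higher and 11.3% lower. At 2-fold, DMSO against Untreated gave 1 higher and 0 lower, where 3.88% were higher and 2.07% lower, and DMSO + IL-4 against IL-4 gave 0 and 0, where 2.99% were higher and 3.05% lower. Both comparisons had chr5:125866516-125868642 as the highest ratio, with a signal of 36.1 and 86.3 without IL-4, 58.4 and 93.9 with IL-4, 93.6 with latrunculin A and 141 with MCSF. The lowest ratio was -0.34 (log2) at chr12:60135920-60140055 for DMSO against Untreated and -0.37 at chr12:94815349-94815765 for DMSO + IL-4 against IL-4.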

How the data were processed

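Per the study's methods, paired-end reads of 38 bp were trimmed with Cutadapt, aligned to mm9 with Bowtie2 (up to 10 alignments per read), freed of duplicates with Picard and of blacklisted and mitochondrial reads, and counted per site with featureCounts. Versions, and how sites were joined, are not given in the sources used here. The deposited signal is reads per site scaled by the authors with TMM factors in edgeR, and whole reads were recovered for 100% of values within 0.001 of a read. The deposited peak lists, called by the authors with macs2 (q of 0.05) on each library, give a fold enrichment ratio and a −log10 q-value. Normalized reads used the deposited scale. The background was every site whose normalized reads averaged 20 or more, and ratios used 1 added read and a 1.5-fold limit. No test applies with 1 library per group, and every ratio compares 2 libraries, not 2 conditions. Intervals are exact (95%). Profile groups came from complete linkage (scipy 1.17.1). Scripts were tested on simulated data, the profile groups only at a wider limit than the one used here. Named sites are the 10 highest, those of both main clusters, the highest of the 6 largest profile groups, the largest rise and fall per comparison, those at the threshold, the widest, the narrowest and the highest per kb. Sites on chromosome 18 were counted, not named. Other named sites were chosen after their values were seen. The members, lists and comparisons were chosen with earlier results of these data known. The last site on chromosome 1 ends at 197195351, past the GRCm38 length of 195471971, so GRCm38 sequence and annotation were not used.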

Additional observations from a re-analysis of the deposited data

Results flagged for a closer look

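On chromosomes X and Y, outside the rule, 14 sites had a mean signal of at least 65, of which 13 were on X. They are singled out because they are no members, and they entered the comparisons above only within the background of all sites. A run of 8 of them, with gaps of at most 100 kb, lay between 166428779 and 166527572 of chromosome X, with log2 ratios of MCSF + IL-4 to IL-4 from 0.25 to 1.77. At the highest of these ratios, chrX:166433864-166434926, the signal was 93.7 and 92.2 without IL-4 (Untreated, then DMSO), 201 and 190 with IL-4 (alone, then with DMSO), 239 with latrunculin A and 686 with MCSF. Its 2 libraries without IL-4 were the lowest and MCSF + IL-4 stood far above the rest. Some sites of the run passed 65 only through MCSF + IL-4, so their high ratios follow in part from the cut. At chrX:166432688-166432904 the signal was 43.5 and 49.5 without IL-4, 63.5 and 57.6 with IL-4, 61.8 with latrunculin A and 119 with MCSF.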

How the results depend on the processing

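Of 134 alternative values, 90 kept within the limits set for their kind and 44 moved. The cause of the moves was not tested except where the setting itself gives it. On total reads in sites, 4 members were lower for IL-4 against Untreated and 4 for DMSO + IL-4 against DMSO, and medians were -0.043 for the latter, 0.18 for DMSO against Untreated and 0.075 for DMSO + IL-4 against IL-4. DESeq2 size factors gave 5 lower for IL-4 against Untreated. Scaled on reads outside the members, 6 were lower for IL-4 against Untreated, for latrunculin A 86 were lower, while MCSF gave 18 higher and 69 lower members. Medians on that scale were -0.061 for IL-4 against Untreated, 0.19 for DMSO against Untreated, 0.059 for DMSO + IL-4 against IL-4, -0.13 with latrunculin A and -0.018 with MCSF, so that those for IL-4 against Untreated, latrunculin A and MCSF changed sign. For IL-4 against Untreated the sign also changed on total reads (-0.0099) and with DESeq2 size factors (-0.014). At 2-fold, which calls fewer sites by construction, 2 members were higher and 0 lower for IL-4 against Untreated, 2 and 0 for the DMSO pair, 1 higher for DMSO against Untreated, 0 higher for DMSO + IL-4 against IL-4, 20 higher and 17 lower for latrunculin A, while MCSF gave 5 higher and 4 lower. With the controls crossed, alternatives chosen after seeing the data, 40 were higher with latrunculin A against the IL-4 library, and 24 with MCSF against DMSO + IL-4. With a mean of at least 50, 354 sites held 33.8% and 34.5% of reads without IL-4 (Untreated, then DMSO), 31.4% and 30.7% with IL-4 (alone, then with DMSO), 22.7% with latrunculin A and 24.8% with MCSF. With at least 80, 251 sites held 33.3%, 33.9%, 30.8%, 30.1%, 21.9% and 24.1% in that order. Without the chromosome 9 stretch and the chromosome 2 cluster the shares were 10.1%, 11%, 10.0%, 10.4%, 8.87% and 9.16%. Other limits of the profile groups gave 24 to 37 groups with 164 to 257 members. Adding 5 reads, dropping the filter and stricter peaks kept every value within its limits. No paired analysis was possible because each group has 1 library and the labels number the libraries singly. Depth does not limit the members, whose lowest count was 490 reads, and the spread between replicate cultures is unknown.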
